A study of Mus musculus with 8 samples.

Results

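The 9 genes described here set, copy, remove or guard DNA methylation around fertilization, and they were measured in mature (MII) mouse oocytes of young and old females. They were picked by gene name, as every row of the deposited tables whose symbol was Dnmt1, Uhrf1, Dnmt3a, Dnmt3b, Dnmt3l, Tet3, Dppa3, Trim28 or Zfp57. All 9 were found both among the 8898 genes of the ribosome-bound (HA) table and among the 10530 genes of the total RNA (input) table, which share 8537 genes, so no member was lost to the authors' filter on low values.

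DNA methylation of the oocyte genome is laid down while the oocyte grows, by DNMT3A together with its catalytically inactive partner DNMT3L, whereas DNMT3B is the de novo enzyme used mainly after implantation. DNMT1, guided by UHRF1 to hemimethylated DNA, copies the pattern at replication. After fertilization TET3, supplied by the egg, oxidizes 5-methylcytosine, chiefly in the paternal genome, while DPPA3 (also called STELLA or PGC7) shields the maternal genome and imprinted regions from it. The zinc finger protein ZFP57 binds the methylated allele of imprinting control regions and recruits TRIM28 (KAP1), which holds a repressive complex there, so that imprints survive the reprogramming of the early embryo. Because transcription is silent in the MII oocyte, proteins newly made there depend on stored mRNAs and on how many of them are carried by ribosomes. Protein itself was not measured in these libraries.

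The libraries came from RiboTagF/F;Zp3-Cre females on a C57BL/6 background, in which Cre under the Zp3 promoter switches growing oocytes to an HA-tagged ribosomal protein RPL22, and both age groups carried the same alleles. The young females were 1 month old, and the old females were retired breeders of 12 to 15 months, so that age and breeding history cannot be told apart. All females received 5 IU PMSG and 10 IU hCG 48 h later, and oocytes were taken 13 h after hCG. Each age had 2 pools of 200 oocytes, and each pool gave an HA library and an input library made from 10% of the lysate, which makes 8 libraries. A pool mixes the oocytes of several animals.

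The read numbers behind the deposited values could be recovered, and they ranged from 37817382 to 59688578 per HA library and from 38276453 to 60052814 per input library. A count of 3 reads, the floor used here, stood for at most 0.111 CPM in HA and 0.0788 CPM in input, and these floors cover counting error only. Replicate pools were less alike in old HA (Spearman's rho across genes 0.692) than in young HA (0.837), old input (0.823) or young input (0.890). All 12 oocyte markers were present in both tables. Of 14 cumulus and granulosa cell markers, 3 were listed in HA, where their summed CPM was 81.7 to 83.8 in old and 156 to 182 in young pools, and 8 were listed in input, with sums of 32.5 to 117 and 83.2 to 190. Foxl2, Amh, Amhr2, Lhcgr, Ptx3 and Gatm were in neither table. Of 10 oviduct and blood markers, none was in HA, and only Epcam, an epithelial surface protein, was in input, at 57.6 and 0.963 CPM in old and 0.0581 and 3.29 CPM in young pools, so that the first old input library stood apart. The part of these cells in the values below was not tested. With bulk RNA, fewer cells of a type and less RNA per cell cannot be told apart.

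The cytoplasmic polyadenylation element (CPE), which the RNA-binding protein CPEB1 recognizes in the 3'-UTR and which couples poly(A) tail length to translation in maturing oocytes, was looked for in the longest annotated 3'-UTR of each member (GENCODE M21, GRCm38). The letters searched were TTTTAT and TTTTAAT, on the mRNA strand only. The CPE nearest to the 3' end is shown for the 5 members that had one, because the ribosome loading described below is set beside it. Capitals mark CPE motifs.

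Dnmt1, chr9:20907240-20907267, minus strand: acttgatgtagTTTTATatgttgtaata

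Uhrf1, chr17:56323209-56323236, plus strand: ggtttTTTTATTTTTATtttttaaagcg

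Dnmt3a, chr12:3914378-3914405, plus strand: gtttatatataTTTTATtttcgctataa

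Dnmt3b, chr2:153687518-153687545, plus strand: acaacacttctTTTTATgactctcagac

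Tet3, chr6:83362382-83362409, minus strand: gTTTTAATaaaTTTTATatttatttttt

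The Dnmt1 3'-UTR is short, at 312 bases, and its only CPE ends 42 bases before the 3' end. Dnmt3a had 5 CPEs in 6696 bases, of which the last ends 49 bases before the 3' end. Tet3 had 10 in 5669 bases, the most of the 9 genes, and both motifs of the printed window lie in its last 50 bases. Uhrf1 had 2 in 984 bases, directly next to each other, and Dnmt3b had 2 in 1331 bases. No CPE was found in the 3'-UTRs of Dnmt3l (273 bases), Dppa3 (267 bases), Trim28 (173 bases) or Zfp57 (114 bases), which says only that these letters are not in these windows.

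All of these 4 UTRs were far shorter than the median of 1326.5 bases over 8192 genes of the HA table that have a 3'-UTR. Of the members, 5 had at least 300 bases of 3'-UTR, and each of the 5 had a CPE in its last 300 bases, against 41.1% of the 7216 genes of the HA table with a 3'-UTR of that length. A CPE anywhere in the 3'-UTR was found for 70.5% of genes. The Pumilio motif TGTANATA, looked for on the same strand, was found 3 times in Tet3, once in Dnmt3a and once in Dppa3, and 30.6% of genes had it anywhere.

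**Figure D1:**
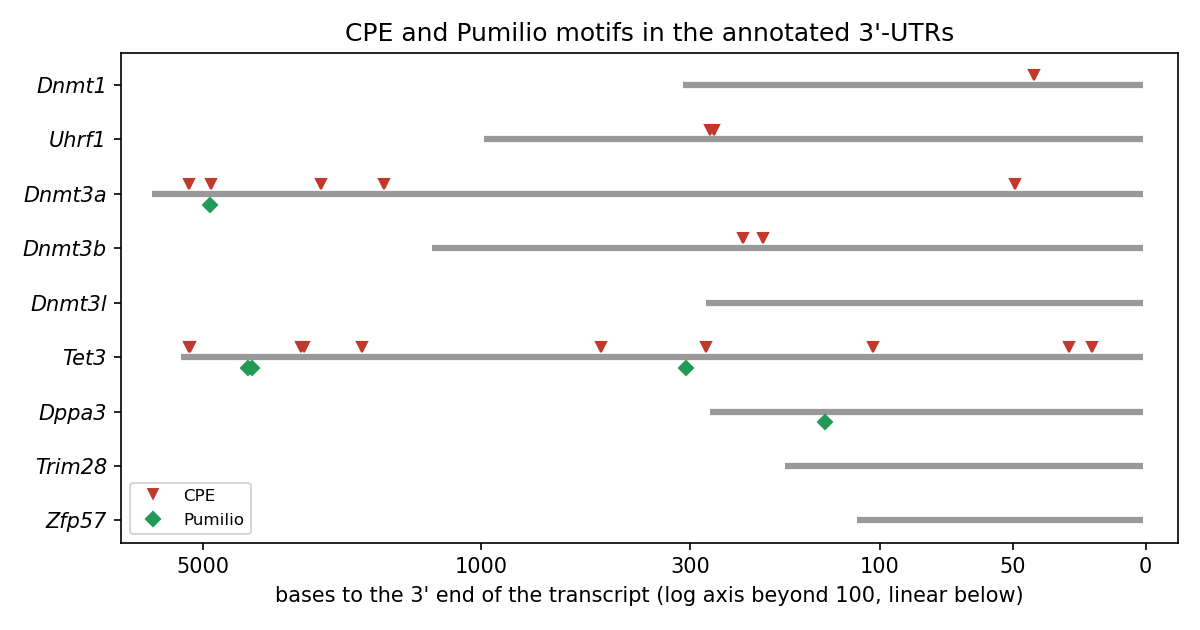
Positions of CPE motifs (red triangles) and Pumilio motifs (green diamonds) along the 3'-UTRs used (grey bars, one per gene), as bases to the 3' end of the transcript, on an axis that is logarithmic beyond 100 bases and linear below. The last CPE lies 42 bases from the end in Dnmt1, 49 in Dnmt3a and 20 in Tet3, while Dnmt3l, Dppa3, Trim28 and Zfp57 have none.

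Total mRNA levels were compared first, to ask which of these transcripts old oocytes store in different amounts. Tet3, Dnmt1 and Zfp57, the members of highest input CPM, and Dnmt3a had log2 differences between -0.05 and -0.01, and the members with a gap between the ages were Trim28 and Dnmt3l, lower in both old pools, and Dppa3, higher in both old pools. Of 9 members, 1 had both old pools above both young pools and 2 had both below. Over all genes of the input table these shares were 16.4% and 18.9%, and among the 1053 genes of highest mean input CPM, the top 10% that hold 6 of the members, they were 29.0% and 8.45%. None of the 9 passed an adjusted p of 0.05 in limma (Benjamini-Hochberg over all genes), where 0.00950% of all genes did, and 1 member, Trim28, had an unadjusted p under 0.05, where 2.71% of all genes did as higher and 3.48% as lower in old oocytes.

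Dnmt1 (chromosome 9, 20907209 to 20959888, GRCm38), the maintenance methyltransferase, had 2880 and 2941 CPM in the old and 2770 and 3276 CPM in the young input libraries. The old values lay between the young ones, and the log2 difference (old over young, on the log2(CPM + 1) scale) was -0.05 with a 95% confidence interval of -0.53 to 0.43. Uhrf1 (chromosome 17, 56303321 to 56323486), which brings DNMT1 to replicating DNA, had 506 and 238 CPM in old and 321 and 310 CPM in young input. The old pools lay on either side of the closely spaced young pools, with a log2 difference of 0.14 (interval -0.70 to 0.97).

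Dnmt3a (chromosome 12, 3806007 to 3914443), the de novo methyltransferase of the growing oocyte, had 404 and 442 CPM in old and 443 and 414 CPM in young input. These 4 libraries spanned less than those of Uhrf1, and the log2 difference was -0.02 (interval -0.57 to 0.54). Its cofactor Dnmt3l (chromosome 10, 78041947 to 78063622) was far lower, with 16.9 and 3.05 CPM in old and 22.5 and 34.1 CPM in young input, from 918, 152, 1552 and 1296 reads. Both old pools were below both young pools, but the old pools differed 5.53-fold between themselves, and the log2 difference of -1.76 (SE 0.97) had an interval of -3.97 to 0.46. It was -0.68 without the second old pool and -2.83 without the first. Dnmt3b (chromosome 2, 153649450 to 153687730), the de novo enzyme of the embryo, had 29.7 and 10.5 CPM in old and 19.0 and 17.6 CPM in young input, with a log2 difference of -0.04 (interval -1.90 to 1.82).

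Tet3 (chromosome 6, 83362373 to 83459084), the 5-methylcytosine dioxygenase of the egg, was the member with the highest mean input CPM, with 3642 and 2914 CPM in old and 3544 and 3111 CPM in young pools. The ages overlapped, and the log2 difference was -0.03 (interval -0.53 to 0.48). Dppa3 (chromosome 6, 122626410 to 122630272), the protector of the maternal genome, had 457 and 474 CPM in old and 359 and 435 CPM in young input. Both old pools were above both young pools, by a log2 difference of 0.24 (SE 0.25, interval -0.33 to 0.80). The study used Dppa3 as a reference gene for RT-qPCR.

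Zfp57 (chromosome 17, 37001163 to 37010635), the reader of methylated imprinting control regions, had 2689 and 2569 CPM in old and 2703 and 2595 CPM in young input. These were among the closest replicates of the 9 genes, and the log2 difference was -0.01 (interval -0.47 to 0.45). Its partner Trim28 (chromosome 7, 12999114 to 13031035) had 125 and 53.0 CPM in old and 174 and 221 CPM in young input. The mean was 89.2 ± 51.1 CPM in old and 197 ± 33.5 CPM in young pools (SD, n = 2), and every old value was below every young value. The log2 difference was -1.25 (SE 0.45, interval -2.27 to -0.23), with an unadjusted p of 0.0221 and an adjusted p of 0.778 in limma, and the adjusted p lay between 0.292 and 1.00 over 13 other settings, with the same sign in each. It was -0.64 (unadjusted p = 0.119) in limma without the second old pool, -1.86 without the first old pool, and its unadjusted p was 0.0930 and 0.170 in limma without the first and the second young pool. Zfp57 mRNA outnumbered Trim28 mRNA in CPM by 21.5 and 48.4 times in old and by 15.6 and 11.7 times in young input, without overlap.

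**Figure D2:**
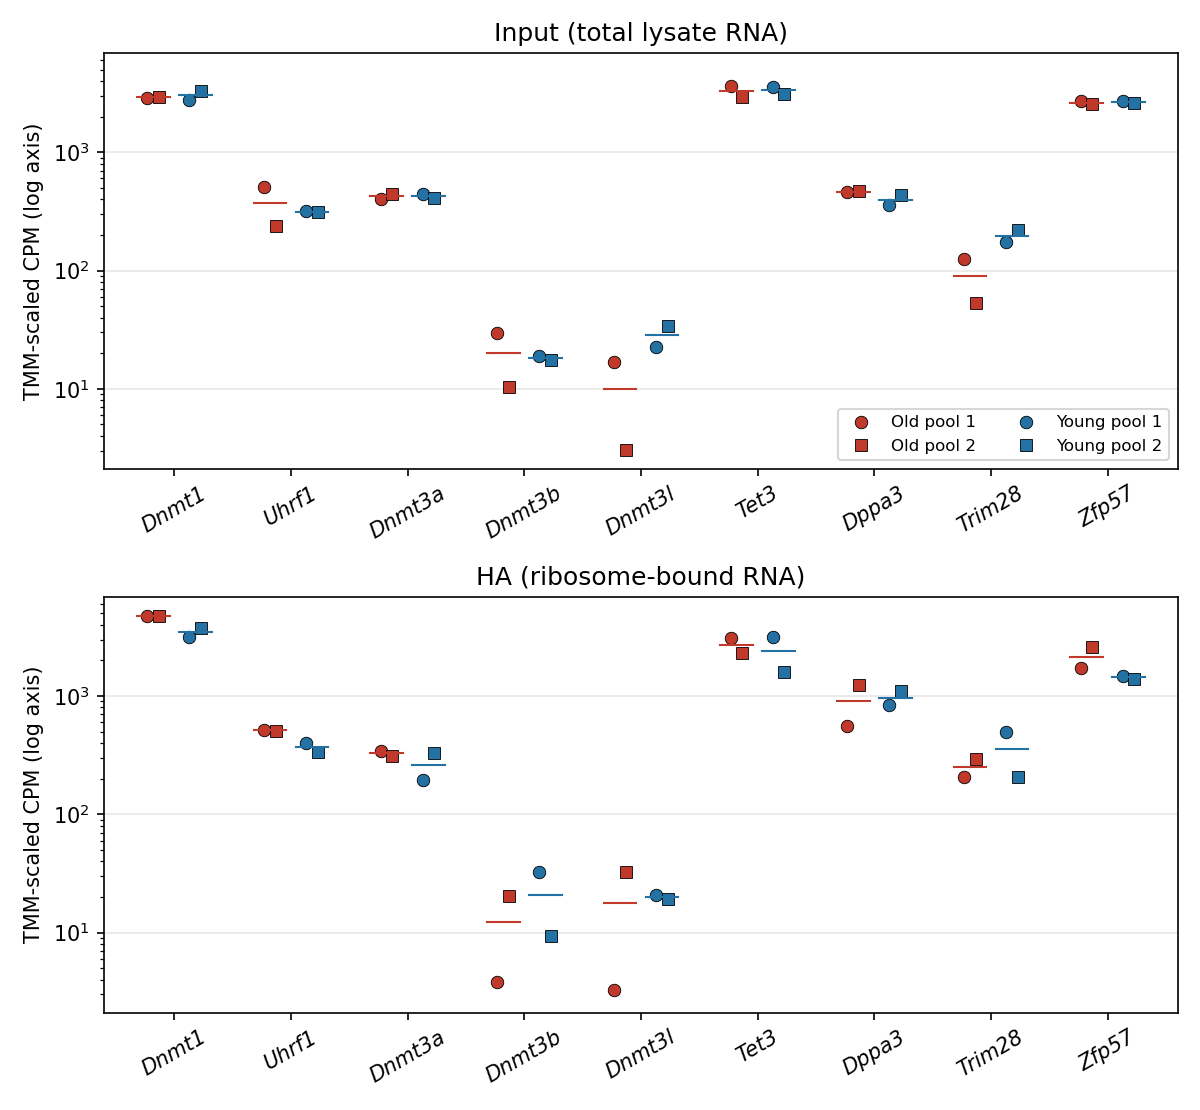
TMM-scaled CPM (log axis) of the 9 genes in the input (top) and HA (bottom) libraries, one point per pool, with the mean of the 2 pools of an age as a line. Trim28 and Dnmt3l are lower in both old than in both young input libraries, while the old HA libraries lie above the young ones for Dnmt1, Uhrf1 and Zfp57.

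Ribosome-bound levels were compared next, to ask whether these mRNAs are loaded differently with age. For Dnmt1, Uhrf1 and Zfp57 each old HA library exceeded each young one, by 1.38, 1.39 and 1.49 times in the means, and no member was lower in both old libraries. Of all genes with HA values 17.2% had both old pools above both young pools, and 24.7% had both below. Among the 890 genes of highest mean HA CPM, the top 10% that hold 7 of the 9 members and all 3 of these, the shares were 53.1% and 3.60%, so that 3 of 7 is no larger a share than among other genes of that level. By limma no member passed 0.05, neither with the adjusted nor with the unadjusted p. Of all genes 0.00% passed the adjusted threshold, and 4.28% were higher and 10.5% lower in old HA libraries at the unadjusted one.

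Dnmt1 had the highest mean HA CPM of the 9 genes, though Tet3 exceeded it slightly in the first young pool, and the order per kb is given further on. It had 4770 and 4772 CPM in the old and 3165 and 3768 CPM in the young HA libraries, a log2 difference of 0.47 (SE 0.31, interval -0.27 to 1.20, adjusted p = 0.609 in limma). Uhrf1 had 513 and 508 CPM in old and 399 and 338 CPM in young HA, a log2 difference of 0.48 (SE 0.39, interval -0.46 to 1.42). Replicates of this maintenance pair differed 1.00-fold and 1.01-fold in old and 1.19-fold and 1.18-fold in young HA.

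Zfp57 had 1719 and 2572 CPM in old and 1482 and 1401 CPM in young HA, a log2 difference of 0.55 (SE 0.36, interval -0.31 to 1.40), which was 0.25 without the second old pool and 0.84 without the first. Its partner Trim28 had 206 and 291 CPM in old and 500.1 and 207 CPM in young HA, so that one young pool stood above the other 3 libraries. The log2 difference of Trim28 was -0.39 (interval -1.74 to 0.96). Zfp57 exceeded Trim28 by 8.35 and 8.83 times in old and by 2.96 and 6.78 times in young HA.

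Dnmt3a had 345 and 312 CPM in old and 195 and 329 CPM in young HA, with a log2 difference of 0.37 (interval -0.76 to 1.50). Dnmt3l had 3.25 and 32.3 CPM in old and 20.9 and 19.3 CPM in young HA, from 137, 874, 1615 and 1094 reads. The old pools differed 9.92-fold and enclosed the young ones. Dnmt3b had 3.83 and 20.5 CPM in old and 32.5 and 9.33 CPM in young HA, from 161, 556, 2515 and 529 reads, and its interval ran from -4.53 to 2.80. The fewest reads behind a Dnmt3l value, 152 in input and 137 in HA, were well above the floor.

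Tet3 had 3111 and 2324 CPM in old and 3176 and 1604 CPM in young HA. The young pools differed 1.98-fold and enclosed both old values, with a log2 difference of 0.25 (interval -0.76 to 1.27). Dppa3 had 560 and 1237 CPM in old and 842 and 1094 CPM in young HA, where the old pools enclosed the young ones. Its log2 difference was -0.21 (interval -1.34 to 0.93).

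The old against young difference in HA moved with expression level over all genes. With genes in 10 equal classes by mean HA CPM, the median log2 difference was -0.97 in the lowest and 0.61 in the highest class, against -0.23 and 0.13 in input. The 5 members of the highest HA class with a positive difference (0.25 to 0.55) all lay below the median of that class, and so did Dppa3 and Trim28. Dnmt3b and Dnmt3l, in class 5 with a median of -0.46, had -0.87 and -0.82.

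**Figure D3:**
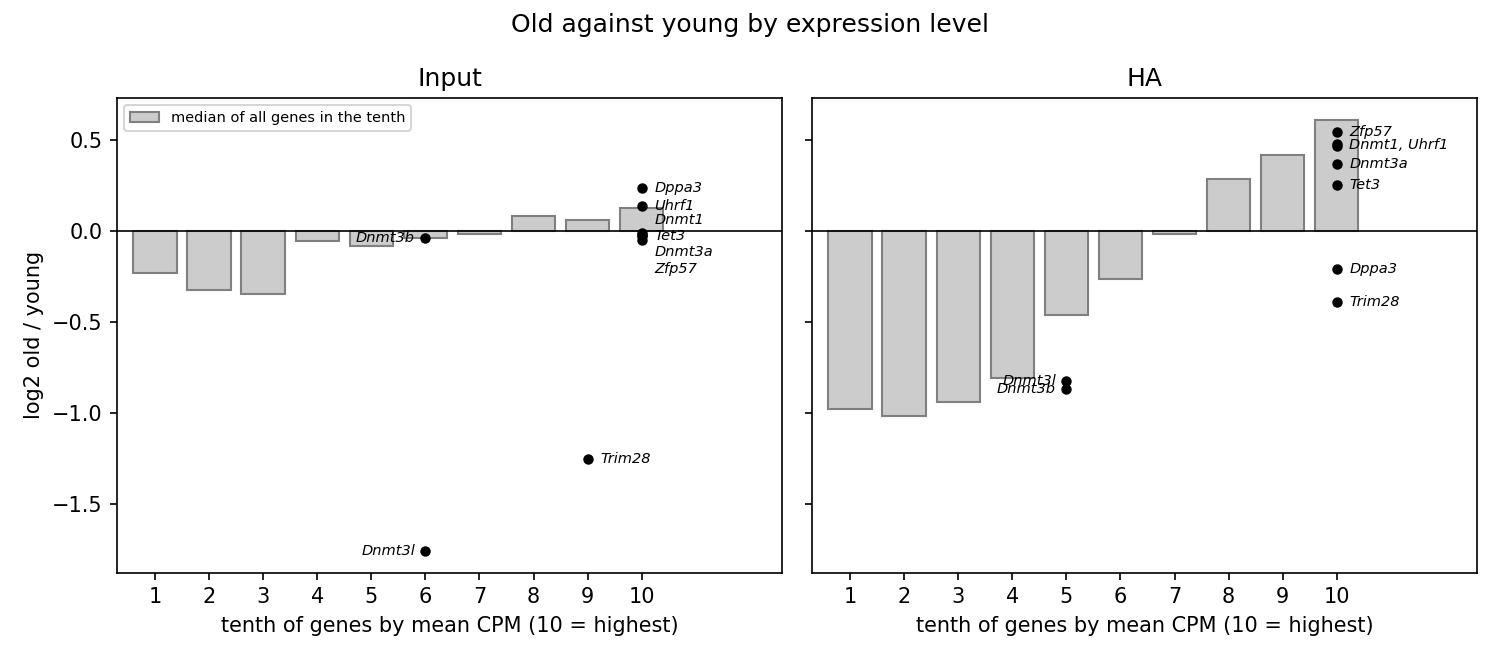
Median log2 difference (old over young) of all genes in 10 equal classes by mean CPM (bars, class 10 highest), for input and HA, with the 9 genes as points in their own class. In HA the medians are -0.97 in class 1 and 0.61 in class 10, and the 7 genes in class 10 all lie below that median.

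The direction of the HA differences depended on the scaling. The authors' TMM factors, recovered from the tables, ranged from 0.715 to 1.30 in HA and from 0.915 to 1.15 in input. As a plain share of the reads on all genes of the HA table, Dnmt1 took 0.428% and 0.341% in old against 0.410% and 0.453% in young libraries, so the ages overlapped. Uhrf1 took 0.0460% and 0.0363% in old against 0.0517% and 0.0406% in young, and Zfp57 took 0.154% and 0.184% in old against 0.192% and 0.169% in young libraries. Dppa3 took 0.0502% and 0.0885% in old against 0.109% and 0.132% in young libraries, Trim28 took 0.0185% and 0.0208% against 0.0648% and 0.0249%, and Dnmt3l took 0.00029% and 0.00231% against 0.00271% and 0.00232%. As plain shares these 3 members were thus lower in both old libraries, Dnmt3l by a narrow margin, where with TMM no member was. How many of all HA genes were lower in both old libraries as plain shares was not counted. The number therefore says nothing particular about the members.

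With the libraries rescaled to the same sum, which moved the median log2 difference of all HA genes from -0.14 to -0.68, the log2 differences of Dnmt1, Uhrf1, Dnmt3a, Tet3 and Zfp57 were -0.17, -0.16, -0.27, -0.39 and -0.10. With quantile normalization they were -0.26, -0.16, -0.23, -0.40 and -0.23, and that of Dppa3 was -0.98 (unadjusted p = 0.0218, adjusted p = 0.771 in limma). Relative to the median of all genes under the same scaling, these 5 members stayed above it with the TMM and the same-sum scalings and fell below it with quantile normalization. In input the scaling turned none of the gaps, but plain shares of the input reads opened others. Dnmt1 took 0.276% and 0.269% in old against 0.318% and 0.326% in young input libraries. Dnmt3a took 0.0387% and 0.0405% against 0.0509% and 0.0412%. Zfp57 took 0.2577% and 0.2351% against 0.3101% and 0.2579%, a narrow margin. All of these were lower in both old libraries, and how many of all genes were so was not counted. With TMM, quantile and same-sum scaling the input difference was -1.25, -1.36 and -1.44 for Trim28, -1.76, -1.68 and -1.92 for Dnmt3l, and 0.24, 0.10 and 0.05 for Dppa3.

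**Figure D4:**
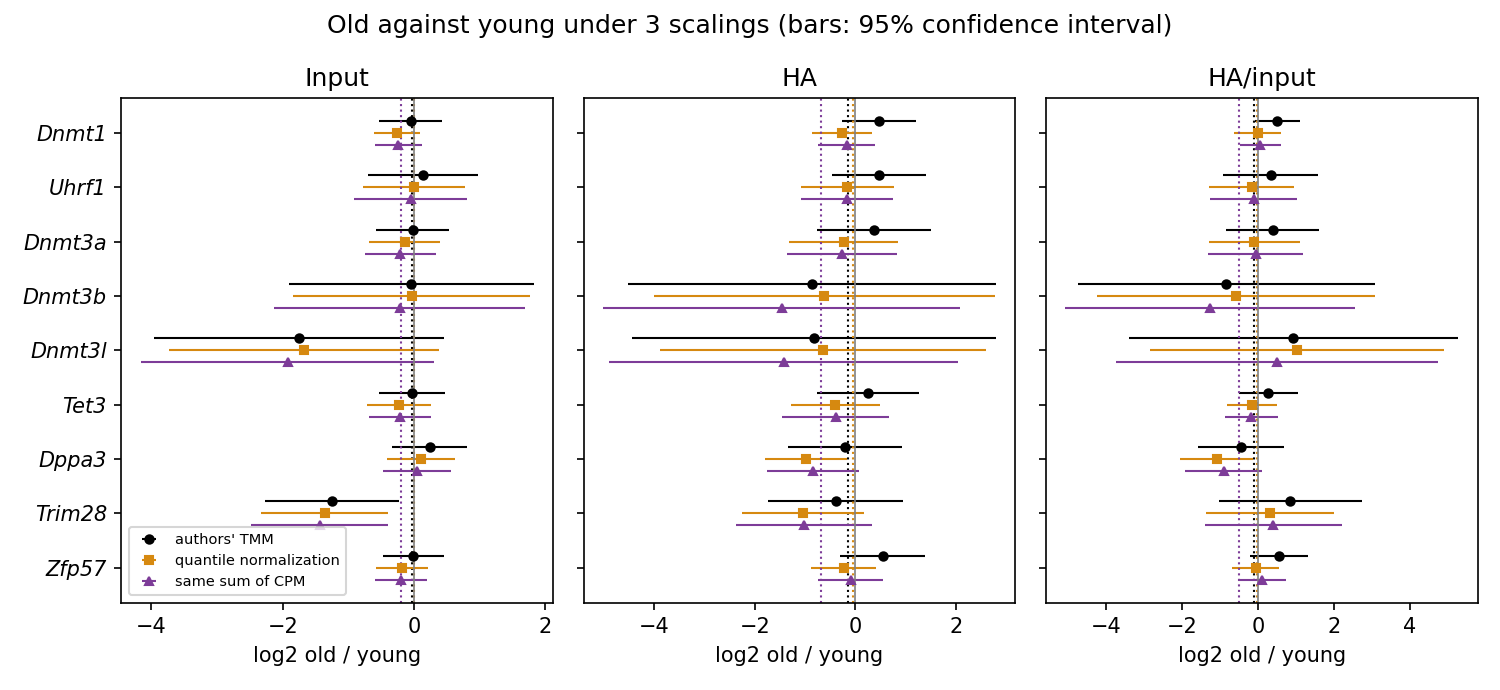
Log2 difference (old over young) with 95% confidence intervals for each gene in input, HA and HA/input under the authors' TMM (black circles), quantile normalization (orange squares) and rescaling to the same sum (purple triangles), with dotted lines for the median of all genes under each. The Trim28 input interval lies below 0 under all 3 scalings, while Dnmt1, Uhrf1, Dnmt3a, Tet3 and Zfp57 in HA change from above to below 0.

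HA CPM over input CPM, the translation efficiency (TE), was taken for each gene and pool as ribosome-bound level relative to total level. HA and input were scaled separately, so TE is a relative value and not the fraction of an mRNA on ribosomes. Dnmt1 and Zfp57 had a higher TE in both old than in both young pools, and no member had a lower TE in both old pools. Of the 8402 genes in both tables with reads in every input library, 16.7% had both old pools above both young pools and 22.8% had both below. These shares were not taken by expression level for TE. Dnmt1 and Zfp57 belong to the highest class of both HA and input, where the median log2 differences were 0.61 in HA and 0.13 in input. Their TE was not compared with that of other genes of that level. No member passed an adjusted or an unadjusted p of 0.05 in limma, where 0.00% of all genes passed the adjusted threshold, and 2.98% were higher and 3.51% lower in old oocytes at the unadjusted one.

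Dnmt1 had a TE of 1.66 and 1.62 in old and of 1.14 and 1.15 in young pools. Replicates differed 1.02-fold in old and 1.01-fold in young pools, and the log2 difference was 0.52 (SE 0.26, interval -0.09 to 1.12, unadjusted p = 0.0840 and adjusted p = 0.739 in limma). It was 0.07 after rescaling to the same sum and -0.0033 with quantile normalization. Zfp57 had a TE of 0.639 and 1.00 in old and of 0.548 and 0.540 in young pools, a log2 difference of 0.56 (SE 0.34, interval -0.21 to 1.32), which was -0.05 with quantile normalization, 0.23 without the second old pool and 0.88 without the first.

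Uhrf1 had a TE of 1.01 and 2.14 in old and of 1.24 and 1.09 in young pools. Tet3, at 0.854 and 0.797 in old and 0.896 and 0.515 in young pools, and Dnmt3a, at 0.854 and 0.705 in old and 0.440 and 0.795 in young pools, lay above the median of all genes in 3 pools and below it in the other. That median was 0.687 and 0.572 in old and 0.729 and 0.724 in young pools.

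Dppa3 had a high loading in both young pools, with a TE of 2.35 and 2.52, above 93.2% and 90.8% of genes. In old pools it was 1.23 and 2.61, above 66.6% and 82.7% of genes, so the ages overlapped, with a log2 difference of -0.44 (interval -1.56 to 0.68). Trim28 had a TE of 1.64 and 5.49 in old and of 2.88 and 0.936 in young pools, and both ages spanned more than 3-fold.

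The 2 lowest members had no stable TE. Dnmt3l had 0.193 and 10.6 in old and 0.927 and 0.566 in young pools, a 54.9-fold gap between the old pools. Dnmt3b had 0.129 and 1.97 in old and 1.71 and 0.530 in young pools. Their intervals, -3.40 to 5.27 and -4.74 to 3.08 on the log2 scale, were the widest of the 9 genes.

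The members with a CPE in the last 300 bases were found both above and below the median TE. In young pools Dnmt1 and Uhrf1 were above it in both, Dnmt3a, Dnmt3b and Tet3 were above it in 1 pool and below it in the other, and Dppa3 and Trim28, without a CPE, were above it in both. Also without a CPE, Zfp57 was below it in both young pools and Dnmt3l was above it in 1.

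**Figure D5:**
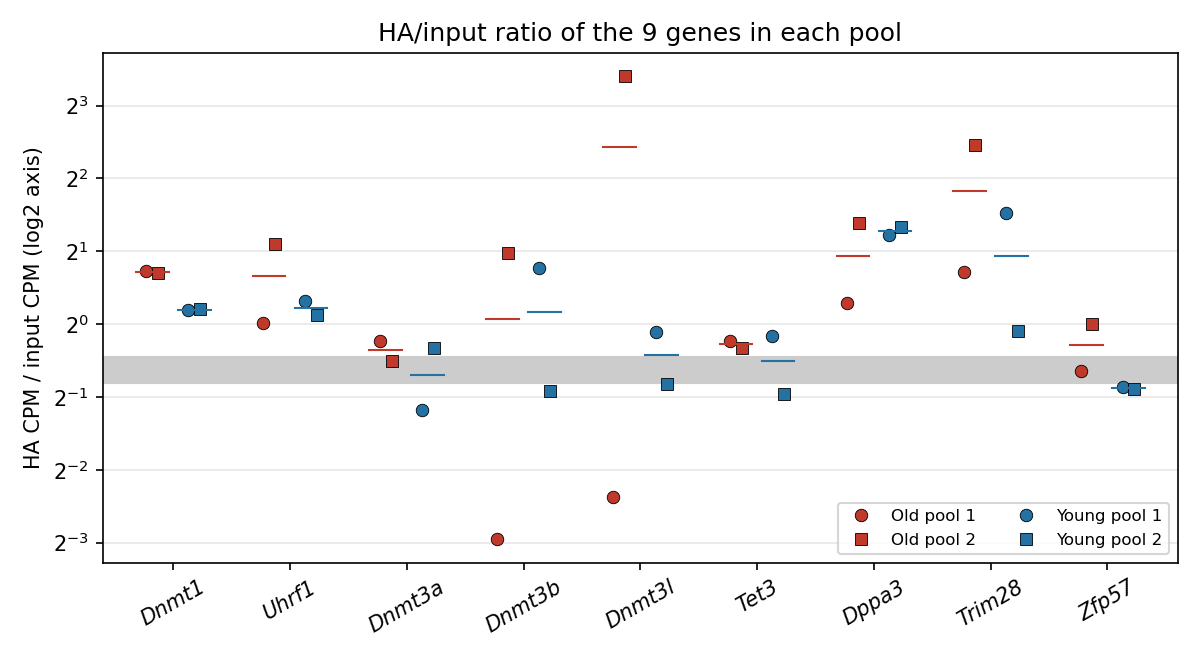
HA CPM over input CPM of the 9 genes in each pool (log2 axis), with the mean of the 2 pools of an age as a line and the range of the 4 pools' medians over all genes as a grey band. Dnmt1 is at 1.62 to 1.66 in old and at 1.14 to 1.15 in young pools, and Dnmt3l spans 0.193 to 10.6 in old pools.

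Levels of different genes were compared per kb of exon, since a CPM grows with length. In young input the order was Zfp57 (700 ± 20.3 CPM per kb, SD, n = 2), Dppa3 (445 ± 60.0), Dnmt1 (410 ± 48.5), Tet3 (199 ± 18.3), Uhrf1 (74.1 ± 1.75), Trim28 (47.4 ± 8.05), Dnmt3a (25.8 ± 1.25), Dnmt3l (9.47 ± 2.73) and Dnmt3b (3.58 ± 0.192). The neighbours Dppa3 and Dnmt1 differed by less than their summed SDs, and all other neighbours by more. In old input Zfp57 (694 ± 22.5), Dppa3 (522 ± 13.4), Dnmt1 (395 ± 5.82) and Tet3 (196 ± 30.9) came in the same order. Below Uhrf1 (87.4 ± 44.6), the old levels of Dnmt3a (25.4 ± 1.62) and Trim28 (21.4 ± 12.3) could not be ordered beyond their spread, nor could those of Dnmt3b (3.93 ± 2.66) and Dnmt3l (3.33 ± 3.27).

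In HA the means of the 3 leading genes came in another order. Dppa3 came first (1085 ± 200 CPM per kb in young and 1007 ± 537 in old), before Dnmt1 (470 ± 57.8 and 647 ± 0.178) and Zfp57 (381 ± 15.1 and 567 ± 159). In young HA these neighbours differed by more than their summed SDs, in old HA by less. The de novo pair Dnmt3a and Dnmt3l and the embryonic Dnmt3b had the 3 lowest levels per kb in young input, and Zfp57, Dppa3 and Dnmt1 the highest. Reads were counted over whole genes, introns included, while these lengths hold exons only. Of the Dnmt3l exon bases 9.47% lie under Aire on the opposite strand, and without strand their reads cannot be told apart. The same holds for 5.70% of Dnmt3b and 1.74% of Dnmt3a exon bases and the antisense genes Dnmt3bos and Dnmt3aos. Because introns were counted, overlaps outside exons count too. Trim28 overlaps Zbtb45 on the opposite strand over 6137 bases, Tet3 overlaps Mir6374, 5430434F05Rik and, on the opposite strand, B230319C09Rik, and Dnmt1 overlaps Mir7081. A pseudogene of Dppa3 (Dppa3-ps) is annotated, and how reads shared with it were counted is not given in the sources used here.

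The wider machinery was described from 5 lists, chosen with earlier results of these data known. In HA, input and TE, none of their genes passed an adjusted p of 0.05 in limma. Genes named below had an unadjusted p under 0.05, at most 4 per list and comparison, beside a background of 4.28% higher and 10.5% lower in HA, 2.71% and 3.48% in input and 2.98% and 3.51% in TE. This background takes no account of expression level. All HA values of Atrx, Nsd1, Setd2 and Ddb1 were above 252.5 CPM, where the highest HA class, with a median of 0.61, began. All HA values of Zim1, Airn and Cdkn1c were below 7.42 CPM, where class 4 began. The medians of the classes below it were -0.97, -1.02 and -0.94. Under quantile normalization and same-sum scaling, 0 of 32 values of the named genes turned sign, but sizes moved. The differences of genes higher in old HA were smaller under both, for example 0.68 and 0.72 for Atrx, except that of Cdca7 with quantile normalization (4.06). Those of genes lower in old HA were smaller with quantile normalization, at -0.18 for Cdkn1c, -0.42 for Airn, -0.81 for Zim1 and -3.04 for Trdmt1, and larger with same-sum scaling. The unadjusted p in limma was then above 0.05 under both scalings for Ddb1 (HA and TE), Nsd1, Setd2, Atrx (HA) and Grb10, under quantile normalization alone for Trdmt1, Zim1, Airn and Cdkn1c, and under same-sum scaling alone for Cdca7, Atrx (input) and Smchd1.

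The next list held 18 genes of repressive chromatin, among them partners of the KRAB zinc finger and TRIM28 complex. Of these, 15 were measured in HA, with a median log2 difference of 0.09 against -0.14 over all genes, and 1 was higher at the unadjusted threshold. This was Atrx, a chromatin remodeller that works at imprinted and repeat heterochromatin, with 1317 and 1235 CPM in old and 435 and 567 CPM in young HA (log2 difference 1.36, SE 0.37, adjusted p = 0.297 in limma). Atrx was also higher in old input, at 1290 and 1343 against 701 and 1012 CPM (0.64, SE 0.25). Smchd1, a noncanonical SMC protein that silences imprinted clusters and the inactive X chromosome, was the other of 2 higher in input, at 189 and 115 against 74.9 and 58.2 CPM (1.15, SE 0.40). The median over the 15 measured in input was 0.02. In TE 15 were measured with a median of 0.48, and none passed the unadjusted threshold.

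Among 13 genes that help to lay down the oocyte pattern, 12 were measured in HA with a median of -0.10, and 2 were higher at the unadjusted threshold. They were the histone H3K36 methyltransferases Nsd1 and Setd2, whose marks are read by DNMT3A. Nsd1 had 790 and 937 CPM in old and 406 and 333 CPM in young HA (log2 difference 1.22, SE 0.38), and Setd2 had 645 and 934 against 272 and 459 CPM (1.13, SE 0.45). In input 11 were measured with a median of 0.05, and in TE 11 with a median of -0.09. None passed the unadjusted threshold in either.

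Among 16 symbols for genes that remove 5-methylcytosine or support this, 10 were measured in HA, 11 in input and 10 in TE. Ddb1, the adaptor of the CUL4 ubiquitin ligases, had 2239 and 2523 CPM in old and 1227 and 844 CPM in young HA (log2 difference 1.22, SE 0.36), and its TE was 4.48 and 5.60 in old and 2.85 and 2.44 in young pools (0.93, SE 0.40). Cul4a, the scaffold of the same ligase, had 117 and 75.8 CPM in old and 38.6 and 39.2 CPM in young input (1.25, SE 0.44). Smug1, a uracil DNA glycosylase, had a TE of 0.334 and 0.0267 in old and of 1.68 and 0.542 in young pools (-3.03, SE 1.28). The median difference of the list was -0.16 in HA, -0.68 in input and 0.26 in TE.

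Among 16 readers of methylated DNA and partners of maintenance, 13 were measured in HA with a median of -0.14, of which 1 was higher and 1 lower at the unadjusted threshold. Cdca7, an activator of the remodeller HELLS, had 13.4 and 43.5 CPM in old and 1.71 and 0.370 CPM in young HA (3.71, SE 1.49). Trdmt1, a tRNA methyltransferase of the DNMT family, had 0.0950 and 0.370 CPM in old HA, from 4 and 10 reads, and 9.03 and 44.8 CPM in young HA (-4.13, SE 1.38). In input 13 of this list were measured with a median of -0.0031. In TE 12 were measured with a median of -1.21, against -0.10 over all genes. None passed the unadjusted threshold in input or TE.

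Of 36 imprinted genes, 14 were measured in HA (median log2 difference 0.24), 21 in input (-0.22) and 14 in TE (0.14). In HA 1 was higher and 3 were lower in old oocytes at the unadjusted threshold. Igf2r, the receptor that clears IGF2, had 358 and 175 CPM in old and 62.4 and 22.6 CPM in young HA (2.70, SE 0.75). Zim1 had 6 and 4 reads in old and 186 and 394 reads in young HA. Cdkn1c, a growth-limiting CDK inhibitor, had 1 and 1 read in old, below the floor of 3 reads, and 87 and 75 reads in young HA. Genes without any reads made up 2.89% and 4.11% of old HA and 0.112% and 0.865% of young HA. Airn, the antisense RNA of the Igf2r cluster, had 9 and 1 (below the floor) reads in old and 141 and 193 in young HA. Where it overlaps Igf2r, unstranded reads of both cannot be told apart. Grb10, an adaptor that restrains insulin signalling, was the only one past the unadjusted threshold in input, at 93.0 and 58.8 CPM in old and 32.2 and 33.3 CPM in young pools (1.15, SE 0.48).

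The genes whose CPM over the 8 libraries was most like that of Tet3, the member with the highest mean input CPM, were Alg8 (Pearson's r 0.968), Arfgef3 (0.966) and Nr1h2 (0.962) among 8536 genes compared. These values describe likeness over libraries that share pools and scaling, and carry no test.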

How the data were processed

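MII oocytes were profiled in 8 libraries, HA and input from 2 old and 2 young pools. Per the Methods and the labels, the authors trimmed reads (Trimmomatic 0.36), aligned them to GRCm38 with HISAT2, counted them per gene with HTSeq without strand (GENCODE M11) and applied TMM separately to HA and input. The deposited values are a signal in CPM after TMM. A minimum of 10 CPM in 2 libraries is stated, but genes below it are listed. In each library 100% of values were whole multiples of 1 read within 0.01, so reads were recovered.

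Old and young pools were compared with two-sided limma tests of log2(CPM + 1), using lmFit and a trended eBayes, and p-values were adjusted by Benjamini-Hochberg over the whole table. This scale understates changes of low genes. TE was log2(HA CPM + 1) minus log2(input CPM + 1) per pool, with the trend on mean expression. With 2 against 2 pools an exact permutation test cannot go below 0.333. The labels do not say whether pools shared animals, so that p-values measure the spread between these pools.

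The members and lists were chosen with earlier results of these data known. Named were all 9 members, listed genes of unadjusted p under 0.05 (at most 4 per list and comparison, by p), and the 3 genes most like the member with the highest input CPM. Positions, lengths and 3'-UTRs are from GENCODE M21 (GRCm38), which held 99.7% of HA and 99.8% of input gene identifiers. Alternatives were other pseudocounts, filter, scalings, the block, leaving out pools, edgeR (likelihood ratio and quasi-likelihood) and DESeq2 on recovered reads. Tests were tested on simulated data. Software was DESeq2 1.42.0, edgeR 4.0.16 and limma 3.58.1 in R 4.3.3, with scipy 1.17.1, pandas 2.3.3, numpy 2.4.6 and, for plots, matplotlib 3.10.9 in Python 3.11.15.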

Additional observations from a re-analysis of the deposited data

How the results depend on the processing

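No member had an adjusted p under 0.05 in any comparison under any of the alternatives. The number with an unadjusted p under 0.05 in limma was 0 in HA and 1 with quantile normalization (Dppa3), 1 in input and 0 to 2 when a pool was left out (2 with Dnmt3l besides Trim28, without the first old pool), and 0 in TE, 1 with quantile normalization and up to 3 when a pool was left out (Dnmt3l, Trim28 and Zfp57 without the first old pool, Dppa3 without the second). Replicate numbers did not pair the pools, since deviations of same-numbered pools correlated at r = 0.079 in HA, 0.027 in input and 0.011 in TE, and the replicate block left the numbers of members at an unadjusted p under 0.05 at 0 in HA, 1 in input and 0 in TE. Of 342 alternative values, 50 turned the sign of a difference that had not passed the test and 292 did not. The cause was not tested.

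In HA, quantile normalization gave -0.26 for Dnmt1, -0.23 for Dnmt3a, -0.16 for Uhrf1, -0.40 for Tet3 and -0.23 for Zfp57, and the same-sum scaling gave -0.17, -0.27, -0.16, -0.39 and -0.10. DESeq2 gave 0.10 for Dnmt3l and 0.12 for Dppa3. With a pool left out the HA difference ran from -0.0050 to 0.75 for Dnmt3a, -1.95 to 0.21 for Dnmt3b, -2.31 to 0.66 for Dnmt3l, -0.24 to 0.75 for Tet3, -0.78 to 0.37 for Dppa3 and -1.03 to 0.24 for Trim28.

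In input, DESeq2 gave 0.0024 for Dnmt3a, 0.16 for Dnmt3b, 0.00018 for Tet3 and 0.010 for Zfp57, both edgeR tests gave 0.13 for Dnmt3b, and the same-sum scaling gave -0.051 for Uhrf1. With a pool left out the input difference ran from -0.17 to 0.071 for Dnmt1, -0.084 to 0.045 for Dnmt3a, -0.75 to 0.67 for Dnmt3b, -0.41 to 0.68 for Uhrf1, -0.19 to 0.13 for Tet3 and -0.044 to 0.022 for Zfp57.

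In TE, quantile normalization gave -0.0033 for Dnmt1, -0.090 for Dnmt3a, -0.16 for Uhrf1, -0.16 for Tet3 and -0.055 for Zfp57, and the same-sum scaling gave -0.059 for Dnmt3a, -0.11 for Uhrf1 and -0.17 for Tet3. With a pool left out the TE difference ran from -0.035 to 0.81 for Dnmt3a, -2.62 to 0.96 for Dnmt3b, -1.62 to 3.49 for Dnmt3l, -0.20 to 0.87 for Uhrf1, -0.12 to 0.68 for Tet3, -0.99 to 0.10 for Dppa3 and -0.0012 to 1.72 for Trim28. In these fits a lone pool is assumed to vary like the other age. The search of the last 300 bases of 3'-UTRs and a TE trend on mean log2 TE were chosen after seeing the data, and the latter turned no sign.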
